A study of Mus musculus with 16 samples.

Results

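Hippocampal cultures of Shank3∆11-/- (KO) mice were compared with those of wild type (WT) mice while both were under lithium (Li). The comparison holds the 8 libraries of the series' 16 whose titles name Li, 4 of KO cultures (KOLi) and 4 of WT cultures (WTLi), each numbered 1 to 4. WTLi cells came from WT pups and KOLi cells from pups whose Shank3 gene carries a deletion of exon 11, which removes the longer isoforms of the protein and leaves shorter ones. Pups were newborn, from postnatal day 0 or 1 (the sources differ) to day 2. Cells were grown to day in vitro (DIV) 14 and received Li at 0.1 mmol/l from DIV 9, for 5 days. Parallel cultures of both genotypes received vehicle (water, WTVeh and KOVeh, 4 libraries each). A preparation pooled 10 to 20 hippocampi, so that a library averages over many animals and over mixed neurons and glia. The labels of the 8 libraries name DIV 15 to 29, with another number for every library, and the times of the paper and of the series' design were used. The title numbers were taken as the 4 experiments of the study. Numbers 1 to 3 were sequenced in the batch labelled 1 and number 4 in the batch labelled 2.

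SHANK3 is a scaffold protein of the postsynaptic density, the protein layer under excitatory synapses, where it links glutamate receptor complexes to the actin cytoskeleton. Its loss is a known genetic cause of autism, as part of Phelan-McDermid syndrome. Li, a mood stabilizer, inhibits glycogen synthase kinase 3 and several phosphatases of inositol metabolism, and so acts on beta-catenin signalling. Comparing the genotypes with Li present in both asks which differences in mRNA between KO and WT cultures are found under the drug.

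Total counts ranged from 17666399 to 30945644 in WTLi and from 16123067 to 29310935 in KOLi, and 2.22 to 3.22% of them were mitochondrial. After the restriction to biotypes, 33134 genes remained, and the 14783 of them with enough counts were tested. Levels are CPM (counts scaled to a common library size). A gene was called when its Benjamini-Hochberg adjusted p was under 0.01 and its fold over 1.2 in the quasi-likelihood test of edgeR, fitted to all 16 libraries with terms for group and replicate number. Fold changes are log2 values of KOLi against WTLi (logFC) with their standard errors (SE). In multidimensional scaling (MDS) of the 8 Li libraries, the library labelled KOLi replicate 2 lay at 1.204 on the first axis, which held 44.1% of the variance, beside WTLi replicates 1 and 2 at 1.24 and 1.34. The other KOLi libraries lay at -1.04, -0.84 and -1.44, and WTLi replicates 3 and 4 at -0.50 and 0.04.

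The targeted gene was lower in KOLi, and 1 of the 4 pairs stood apart. Shank3 (ENSMUSG00000022623, chromosome 15 from 89499623 to 89560261 of GRCm38, plus strand) was at 221, 188, 214 and 261 CPM in WTLi, in the order of the replicates. In KOLi it was at 85.3, 159, 86.3 and 96.3 CPM. Every KOLi library was below every WTLi library, but the library labelled KOLi replicate 2 was much closer to WT than the other 3. The ratio of KO to WT was 0.387, 0.404 and 0.369 in pairs 1, 3 and 4 and 0.845 in pair 2. The counts cover the whole gene, with exons outside the deletion, so the level alone does not read the deletion. The logFC was -1.09 (SE 0.22, edgeR adjusted p = 0.00652), from 221 ± 30.2 CPM (SD, n = 4) in WTLi to 107 ± 35.3 CPM (SD, n = 4) in KOLi. Permuting the 8 libraries without regard to replicate number (exact, two-sided) gave p = 0.0286, the smallest that 4 against 4 allow. This permutation ignores the pairing. Without replicate 2 the logFC was -1.38. The call was lost when WTLi or KOLi replicate 1, 3 or 4 was left out alone (edgeR adjusted p from 0.0215 to 0.0307), and with the 8 Li libraries fitted alone (logFC -1.09, edgeR adjusted p = 0.0465). The fall was much smaller in pair 2 than in the other pairs. Counts of calls in the lists are therefore also given without replicate 2 where they moved by over 1.5 times or turned.

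**Figure D1:**
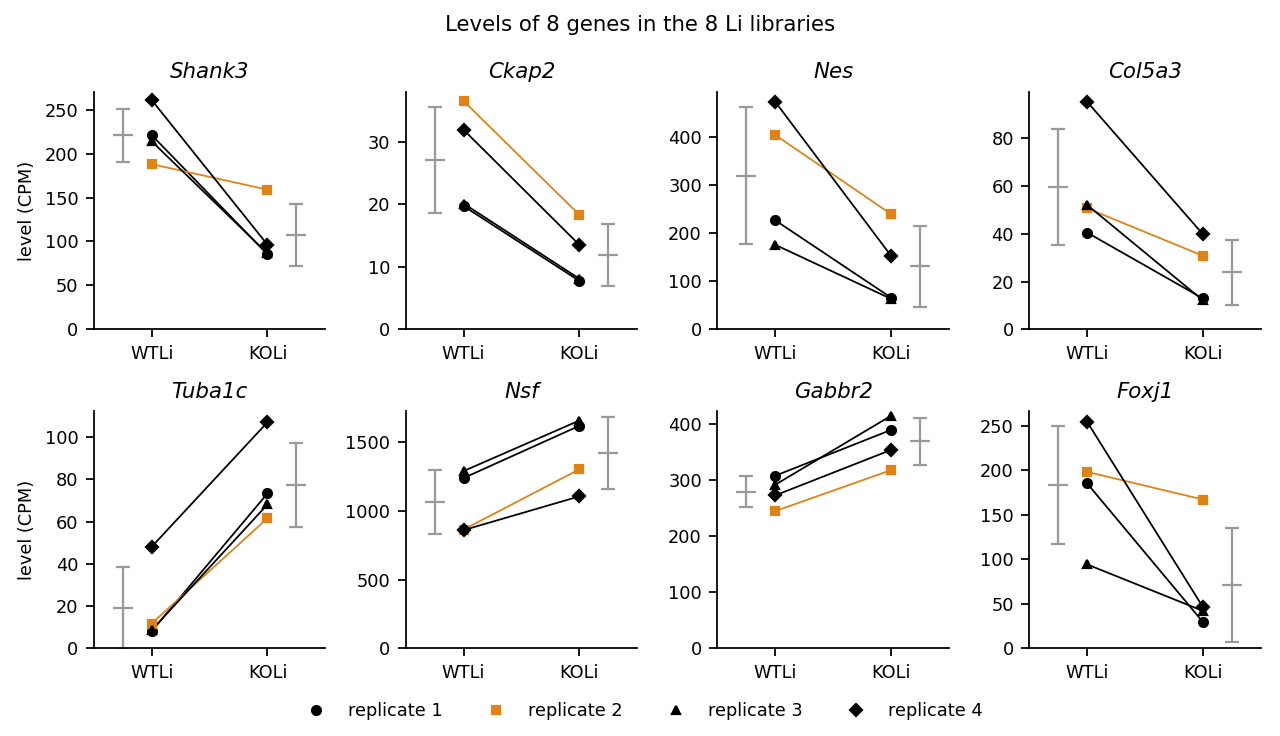
Levels in CPM (y axis, from 0) of 8 genes in WTLi and KOLi (x axis). Each marker is a library, lines join libraries of the same replicate number, orange squares are replicate 2, and grey bars give mean and SD over 4 libraries, cut at 0. Shank3 fell from 188 to only 159 CPM in pair 2, while Ckap2, Tuba1c and Nsf changed the same way in all 4 pairs.

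Across all tested genes, KOLi and WTLi differed in both directions. Of 14783 genes, 532 (3.6%) were called lower and 408 (2.76%) higher in KOLi, together 6.36%. With libraries scaled by their total counts alone, without the TMM factors of edgeR, the split was 645 lower and 255 higher. All 940 went the same way in the 4 pairs, as did 5808 genes (39.3%) of all those tested. The median logFC was -0.004 and the median absolute logFC 0.189. By pair, the median absolute difference was 0.246, 0.182, 0.195 and 0.295, and the lowest value belonged to pair 2. Levels of the 4 KOLi libraries were all below those of WTLi for 369 genes (2.5%) and all above for 492 (3.33%), and 100 and 132 of these were called.

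**Figure D2:**
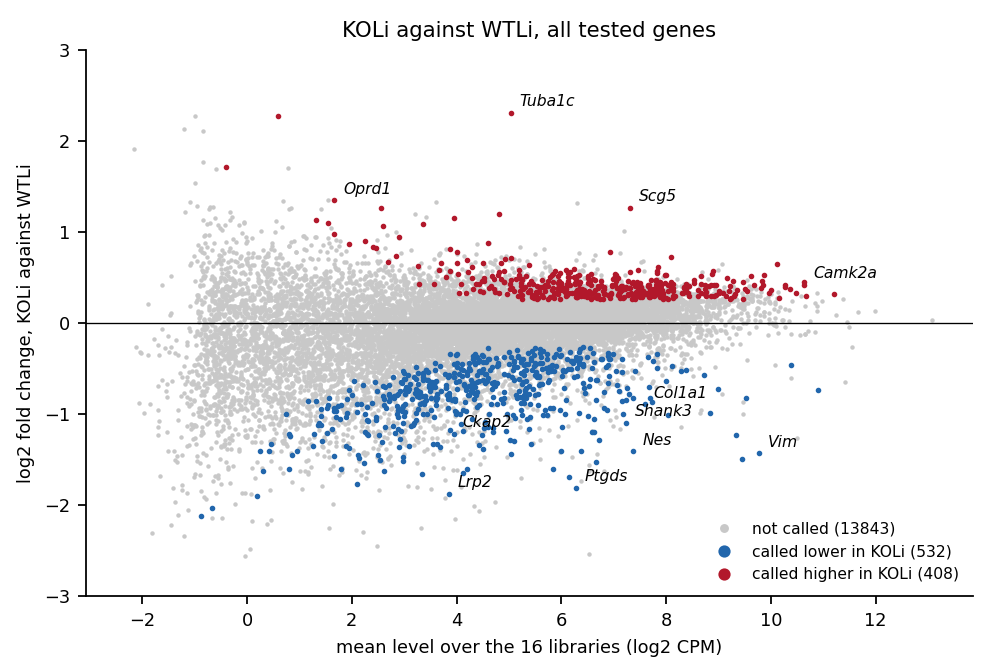
The logFC of KOLi against WTLi (y axis) against the mean level over 16 libraries in log2 CPM (x axis), with 1 point per tested gene. Blue points are the 532 genes called lower and red points the 408 called higher. The axis ends at 3 in both directions, with 5 genes outside it. Among genes at higher levels, Tuba1c at 2.31 and Lrp2 at -1.88 lie furthest from 0 of those called.

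These counts depended on which libraries and which term entered the fit. With 1 of the 8 Li libraries left out, lower calls ranged from 63 to 546 and higher calls from 57 to 446, with the most calls without the library labelled KOLi replicate 2. Leaving out KOLi replicate 1 gave 66 lower and 57 higher, WTLi replicate 4 gave 63 and 84, KOLi replicate 4 gave 75 and 84, WTLi replicate 3 gave 88 and 80, WTLi replicate 2 gave 425 and 405, KOLi replicate 3 gave 168 and 141, and WTLi replicate 1 gave 193 and 182. In all 8 of these fits, 96 of the 940 genes stayed called, 51 of them lower and 45 higher. Without replicate 2 in all 4 groups, 1115 genes (7.54%) were called lower and 652 (4.41%) higher, and 766 of the 940 were among them. Without replicate 1 or 3 no gene was called in edgeR, at an unadjusted p under 0.05 for 3643 and 4447 genes. Without replicate 4, 3 and 7 were called. With the 8 Li libraries fitted alone no gene was called either, with the smallest edgeR adjusted p at 0.0392, although 4642 genes (31.4%) had an unadjusted p under 0.05. A culture random effect in limma-voom, which lets libraries of 1 genotype and number correlate, gave 375 lower (2.54%) and 289 higher (1.95%), with 590 of the 940 among them.

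**Figure D3:**
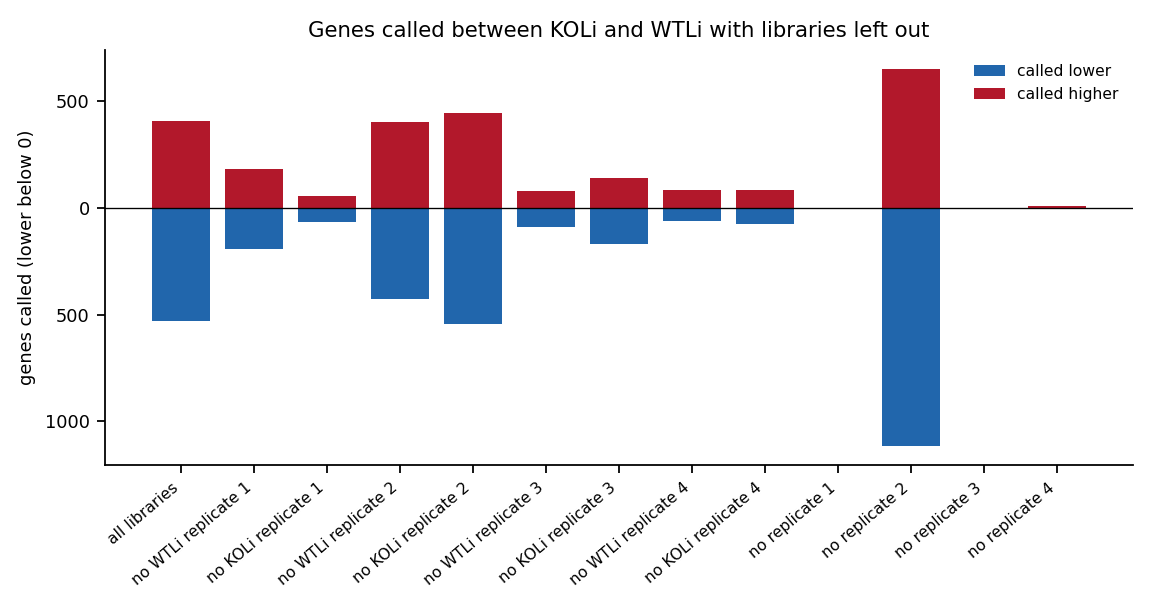
Number of genes called (y axis) lower (blue, below 0) and higher (red) between KOLi and WTLi in edgeR, with all libraries, with 1 Li library left out and with 1 replicate number left out in all groups (x axis). Leaving out replicate 2 gave 1115 and 652 calls, and leaving out replicate 1 or 3 gave none.

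Leaving out called genes whose mean lay under 1 log2 CPM, the 12 largest falls included genes of epithelia, of the actin cytoskeleton and of YAP signalling. Among them were Lrp2, Ptgds, Casq1, Palld, Nuak2, Abcc12, Cldn19, Pdlim2, Shroom3, Hc and Ctgf, with logFC from -1.88 to -1.52. Lrp2, which encodes the endocytic receptor megalin, was at 14.4, 38.5, 28.1 and 84.0 CPM in WTLi and at 3.14, 15.9, 4.26 and 27.6 CPM in KOLi. Each KOLi library was below its own pair mate, while the groups overlapped because WTLi replicate 1 was low (logFC -1.88, SE 0.36, edgeR adjusted p = 0.00567). Ptgds, the prostaglandin D2 synthase known from meninges and choroid plexus, held 262, 176, 148 and 75.2 CPM in WTLi against 89.9, 94.4, 29.5 and 15 CPM in KOLi (logFC -1.81, SE 0.28, edgeR adjusted p = 0.00238). For both genes, the difference within pairs was the smallest in pair 2. Only Cldn19, a claudin of tight junctions, had no overlap between the groups among the 12. Palld, which binds actin, had a logFC of -1.68 and Shroom3, which shapes epithelial cells, of -1.60. Over the 12 genes, the median difference was -2.08, -0.70, -1.63 and -2.28 in pairs 1 to 4. Since they were picked for their size, these values describe them and test nothing. Calls of Casq1, Hc and Lrp2 were lost with a culture random effect in limma-voom, and with 1 Li library left out the 12 calls held in 1 to 7 of the 8 fits each.

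The largest rise at such levels was that of Tuba1c, which encodes an alpha-tubulin. It was at 8.20, 11.8, 8.69 and 48.1 CPM in WTLi and at 73.3, 61.6, 68.1 and 107 CPM in KOLi. All KOLi libraries were above all WTLi libraries, and WTLi replicate 4 stood well above the other WTLi libraries. The logFC was 2.31 (SE 0.30, edgeR adjusted p = 0.00128), 2.25 without replicate 2, and the call was kept with any of the 8 libraries left out. The gene lies on chromosome 15 from 99029891 to 99038110, within 10 Mb of Shank3. Its sequence is close to that of other alpha-tubulin genes, and reads that they share could have been counted for either. The other rises, Oprd1, Scg5, Grm3, Tgfbi, Lypd1, Card10, Esrrg, Gsg1l, Crhbp, 1700048O20Rik and 2900052N01Rik, had logFC from 1.35 to 0.95. Scg5, whose product 7B2 is a chaperone of a prohormone convertase, was at 116, 84.8, 113 and 89.4 CPM in WTLi and at 314, 117, 364 and 234 CPM in KOLi. The groups did not overlap, but the library labelled KOLi replicate 2 was just above the highest WTLi value (logFC 1.27, SE 0.24, edgeR adjusted p = 0.00495). Oprd1, the delta opioid receptor, was at 2.24, 2.27, 2.05 and 1.17 CPM in WTLi and at 5.66, 2.94, 9.61 and 3.02 CPM in KOLi, again without overlap. Gsg1l, an auxiliary subunit of AMPA receptors, was at 5.27, 5.54, 10.5 and 6.68 CPM in WTLi and at 15.5, 8.88, 17.4 and 17.3 CPM in KOLi (logFC 1.09, SE 0.14, edgeR adjusted p = 0.00131). Here WTLi replicate 3 reached above the library labelled KOLi replicate 2. Calls of Tuba1c, Gsg1l and Card10 held in all 8 fits with a Li library left out. Of the other 9, the call of Lypd1 held in 6, that of 2900052N01Rik in 5 and those of the other 7 in 1 to 3, and the call of 1700048O20Rik was lost with a culture random effect.

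Genes of mitosis were lower in KOLi as a group. Of the 67 tested, 48 (71.6%) were called lower and 0 higher, against 3.6% and 2.76% of all tested genes, and the logFC of all 67 was below 0. Their median logFC was -0.88, against -0.004 over all genes, and it was -0.58, -0.82, -0.94 and -1.07 in pairs 1 to 4. Here pair 2 did not stand apart, and without replicate 2 the median was -0.88 with 39 called. Ckap2, a protein of the spindle, was at 19.7, 36.5, 20.1 and 31.9 CPM in WTLi and at 7.74, 18.3, 8.09 and 13.5 CPM in KOLi. Every KOLi library was below every WTLi library, and replicates 2 and 4 were above 1 and 3 in both groups (logFC -1.21, SE 0.11, edgeR adjusted p = 0.000565). Prc1, which bundles microtubules in the central spindle, was at 17.6, 31.7, 19.5 and 30.1 CPM in WTLi and at 10.2, 16.4, 9.82 and 14.0 CPM in KOLi. Cdca3, which promotes entry into mitosis, was at 8.15, 14.8, 8.41 and 15.2 CPM in WTLi and at 4.97, 7.26, 4.13 and 7.39 CPM in KOLi. Neither overlapped between the groups (logFC -0.96, SE 0.11 and edgeR adjusted p = 0.00112 for both). Chosen after their values were seen, Top2a (logFC -1.05), which untangles DNA, Cdk1 (logFC -1.0), the mitotic kinase, and Mki67 (logFC -0.92), a marker of dividing cells, also fell. Of the 48 calls, 11 had no overlap between groups, 12 held in all 8 fits with a Li library left out and 24 held with a culture random effect. Among all 532 genes called lower, 100 had no overlap and 51 held in all 8 fits, and 590 of all 940 calls held with a culture random effect. The summed level of the 67 genes was 685 to 1201 CPM in WTLi and 454 to 732 CPM in KOLi. In bulk libraries, fewer dividing cells and less mRNA per cell cannot be told apart.

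Promoters of mitotic genes often carry a CCAAT box, bound by NF-Y, and a CHR element, a site through which cell cycle genes are repressed outside mitosis. RefSeq windows of GRCm38.p6 from 250 bases before to 50 bases after the start were at hand for 55 of the 67 genes and for 11341 of the 14780 tested symbols. TTTGAA, the letters of the CHR element, was on either strand of 39 (70.9%) of the 55 mitosis windows and of 11.5% of all windows. CCAAT was on either strand of 70.9% of the mitosis windows and of 38.5% of all. Among the 39 called genes with a window, 28 (71.8%) held the CHR letters and 32 (82.1%) a CCAAT box. In the windows of the genes of DNA replication, CCAAT was found in 65.8% and the CHR letters in 13.2%. The stretches from 120 bases before to 30 bases after the start are shown for the 5 called genes with the smallest p whose windows held both motifs, all within the stretch. They read 5′ to 3′ on the strand of the gene, with both motifs in capitals on whichever strand they lie (reverse complements ATTGG and TTCAAA).
Ckap2, chr8:22185790-22185939, minus strand: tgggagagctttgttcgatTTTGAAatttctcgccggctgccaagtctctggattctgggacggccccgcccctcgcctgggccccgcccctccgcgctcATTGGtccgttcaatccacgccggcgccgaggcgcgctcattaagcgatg
Prc1, chr7:80294331-80294480, plus strand: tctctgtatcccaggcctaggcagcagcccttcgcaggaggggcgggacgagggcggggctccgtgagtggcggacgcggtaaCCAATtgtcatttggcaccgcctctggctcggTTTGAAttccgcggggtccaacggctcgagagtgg
Racgap1, chr15:99651627-99651776, minus strand: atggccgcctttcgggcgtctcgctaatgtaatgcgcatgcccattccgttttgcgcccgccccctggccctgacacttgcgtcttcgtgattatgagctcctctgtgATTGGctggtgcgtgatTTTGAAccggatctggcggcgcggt
Cdc20, chr4:118437314-118437463, minus strand: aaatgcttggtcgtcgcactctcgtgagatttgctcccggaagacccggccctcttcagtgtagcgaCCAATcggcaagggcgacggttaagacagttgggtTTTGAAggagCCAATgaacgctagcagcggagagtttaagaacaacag
Kif18b, chr11:102925095-102925244, minus strand: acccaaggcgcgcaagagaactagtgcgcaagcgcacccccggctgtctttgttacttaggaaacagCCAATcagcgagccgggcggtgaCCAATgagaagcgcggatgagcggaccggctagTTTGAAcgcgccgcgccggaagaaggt
In Prc1, Racgap1, Cdc20 and Kif18b the CHR letters lay close to the start, and in Ckap2 far upstream of it, with the CCAAT box between. A match of letters says only that they occur there.

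Genes of DNA replication and of G1 control were lower by a smaller amount. Of 48 genes of DNA replication and nucleotide synthesis, 15 (31.2%) were called lower and 0 higher, with a median logFC of -0.50 (-0.38, -0.41, -0.43 and -0.53 in pairs 1 to 4). Mcm4, a subunit of the replicative helicase, was at 23.8, 31.2, 23.8 and 31.6 CPM in WTLi and at 14.8, 21.8, 14.4 and 17.3 CPM in KOLi. The groups did not overlap, and the call was kept with any Li library left out (logFC -0.70, SE 0.09, edgeR adjusted p = 0.00128). Rrm1 (logFC -0.62), the large subunit of ribonucleotide reductase, and Mcm7 (logFC -0.50), of the same helicase as Mcm4, fell as well, with overlapping groups. Of 28 regulators of G1, 8 (28.6%) were called lower and 0 higher, with a median logFC of -0.34. Ccnd3, a D-type cyclin, had a logFC of -0.66 (SE 0.10, edgeR adjusted p = 0.00238) and its kinase partner Cdk4 of -0.29 (SE 0.05, edgeR adjusted p = 0.00363). E2f8, a repressor of the E2F family, had a logFC of -1.09 (SE 0.19, edgeR adjusted p = 0.00368). Without replicate 2, 11 genes of replication and 10 of G1 were called lower. With a culture random effect, 5 of the 15 calls of replication and 3 of the 8 of G1 were kept.

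Genes of the extracellular matrix (ECM) were lower for many of its structural classes, with fewer calls than in mitosis. Among 15 fibril collagens and partners, 5 (33.3%) were called lower and 0 higher, with a median logFC of -0.41. Col5a3, a chain of type V collagen, was at 40.5, 50.7, 52.1 and 95.3 CPM in WTLi and at 12.9, 30.8, 12.1 and 39.8 CPM in KOLi. No KOLi library reached the WTLi range (logFC -1.43, SE 0.22, edgeR adjusted p = 0.00227). Col1a1, a chain of type I collagen, was at 169, 297, 264 and 415 CPM in WTLi and at 135, 143, 94.4 and 254 CPM in KOLi. WTLi replicate 1 lay inside the KOLi range, and pair 1 differed least, by -0.32, against -1.05 in pair 2. Col2a1, of cartilage collagen, lies within 10 Mb of Shank3 and was at 1.81 to 2.92 CPM in WTLi and at 0.126 to 1.14 CPM in KOLi, near the floor of the counts (logFC -1.90, SE 0.33, edgeR adjusted p = 0.00361). Among 20 other collagens, 1 (5%) was called lower, Col6a2 (logFC -0.40), and 1 (5%) higher, Col25a1 (logFC 0.49), a transmembrane collagen of neurons. Shares over all tested genes were 3.6% and 2.76%. Without replicate 2, 3 of these collagens were called lower and 2 higher.

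Of 16 basement membrane genes, 5 (31.2%) were called lower and 0 higher, with a median logFC of -0.34. They include Lamb2 (logFC -1.20) and Lama5 (logFC -1.29), both laminin chains, and Hspg2 (logFC -0.95), which encodes perlecan. Lamb2 was at 137, 189, 92.3 and 268 CPM in WTLi and at 48.6, 117, 48.0 and 84.1 CPM in KOLi. The library labelled KOLi replicate 2 lay above WTLi replicate 3, and the other KOLi libraries lay below all of WTLi. Among 60 glycoproteins and small proteoglycans, 9 (15%) were called lower and 1 (1.67%) higher, with a median logFC of -0.62. In pairs 1 to 4 this median was -0.35, -0.22, -0.91 and -0.83, and without replicate 2 it was -0.72 with 21 called lower. Aebp1, which binds collagen, was at 96.6, 107, 90.0 and 88.0 CPM in WTLi and at 65.2, 64.2, 39.4 and 48.6 CPM in KOLi. Groups did not overlap, and the call was kept with any Li library left out (logFC -0.84, SE 0.10, edgeR adjusted p = 0.00112). Efemp2 and Ltbp3, of elastic fibres and of TGF-beta storage, had logFC of -0.88 and -0.98. Tgfbi, an adhesive matrix protein, was the call in the other direction (logFC 1.2). It was at 21.5, 21.3, 21.3 and 6.94 CPM in WTLi and at 63, 25, 46.6 and 25.2 CPM in KOLi.

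Of 47 enzymes and inhibitors of the ECM, 9 (19.1%) were called lower and 0 higher, with a median logFC of -0.37. Bmp1, which cleaves procollagens, was at 98.6, 126, 97.2 and 161 CPM in WTLi and at 72.1, 97.3, 70.5 and 100.1 CPM in KOLi. The highest KOLi values lay only just inside the WTLi range, and every fit with a Li library left out kept the call (logFC -0.50, SE 0.07, edgeR adjusted p = 0.00132). Loxl3, a crosslinking enzyme, and Serpinh1, the collagen chaperone HSP47, had logFC of -0.67 and -0.64. The brain's own ECM of perineuronal nets did not follow these lists. Of 14 such genes, 1 (7.14%) was called lower and 0 higher, with a median logFC of 0.10. The call was Cspg4 (NG2), also a marker of oligodendrocyte precursors and mural cells, with 4.49, 11.2, 5.20 and 8.91 CPM in WTLi and 1.64, 3.23, 2.07 and 4.83 CPM in KOLi. Its groups overlapped by WTLi replicate 1 alone (logFC -1.37, SE 0.23, edgeR adjusted p = 0.00308). Hapln4 (logFC 1.26, edgeR adjusted p = 0.0146) and Hapln1 (logFC 0.32, edgeR adjusted p = 0.0402), link proteins of these nets, missed the threshold.

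Genes of adhesion and of the contractile cytoskeleton were lower, and some tubulin genes higher. Of 41 genes of integrins and focal adhesion, 12 (29.3%) were called lower and 0 higher, with a median logFC of -0.53, and of 37 actin and contractile genes 6 (16.2%) and 0, with a median of -0.60. In pair 2 the medians were -0.20 and -0.21, against -0.48 to -0.84 and -0.34 to -1.06 in the other pairs, and without replicate 2 there were 22 and 16 calls. Myh9, a non-muscle myosin, was at 163, 230, 157 and 319 CPM in WTLi and at 101, 155, 84.0 and 137 CPM in KOLi. The groups did not overlap (logFC -0.84, SE 0.14, edgeR adjusted p = 0.00328). Pxn (paxillin), Rnd3, which relaxes actin stress fibres, and Pdlim1 had logFC of -0.46, -0.67 and -1.23. Of 15 annexins and S100 proteins, 5 (33.3%) were called lower, among them Anxa2 (logFC -0.93), its partner S100a10 (logFC -1.03) and Anxa5 (logFC -1.0). Their median logFC was -0.79, with -0.24 in pair 2, and 8 were called lower without replicate 2. Of 15 tubulins and tubulin-binding genes, 3 (20%) were called higher and 1 lower. As a whole this list did not rise, with a median logFC of 0.007 and 6 genes below 0. Tppp3 had its lowest logFC, -1.36, without a call. Tppp, which bundles microtubules, was at 245, 194, 276 and 149 CPM in WTLi and at 372, 268, 389 and 220.1 CPM in KOLi. It was higher in KOLi by much the same amount in each pair (logFC 0.53, SE 0.05, edgeR adjusted p = 0.000565). Tuba4a had a logFC of 0.42 and Tubb6, named after its value was seen, of -0.65. Without replicate 2, 3 were called higher and 2 lower.

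Target genes of YAP and TEAD, a transcription pathway that responds to adhesion and cell density, were lower, and a few genes of TGF-beta and Wnt signalling as well. Of 22 YAP and TEAD targets, 6 (27.3%) were called lower and 0 higher, with a median logFC of -0.48 (-0.21 in pair 2). Ctgf, a matricellular growth factor, was at 141, 216, 115 and 448 CPM in WTLi and at 37.3, 139, 43.3 and 96.2 CPM in KOLi. The library labelled KOLi replicate 2 was above WTLi replicate 3, and the other KOLi libraries were below all of WTLi (logFC -1.52, SE 0.28, edgeR adjusted p = 0.00453). Cyr61, of the same family, had a logFC of -1.41 and the kinase Nuak2 of -1.64. GGAATG, the letters of the TEAD motif, was in 6 (40%) of the 15 windows at hand for this list and in 12% of all windows. Of 37 genes of TGF-beta and BMP signalling, 3 (8.11%) were called lower, Bmp1, Id1 (logFC -0.82) and Tgfbr3 (logFC -0.56). Of 41 Wnt components, 5 (12.2%) were called lower, against 3.6% of all tested genes. Among them were the Wnt transporter Wls (logFC -0.74) and the receptors Fzd2 (logFC -0.72) and Fzd6 (logFC -0.80). None was higher in either list. Without replicate 2, 12 genes were called lower in each of these lists and 10 in that of YAP and TEAD targets. In that fit 7.54% of all tested genes were called lower.

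Genes tied to the action of Li itself had few calls between the genotypes. Over all tested genes 6.36% were called, so that few calls in lists of 13 and 15 genes say little about them. Of 13 direct targets of Li and their partners, 0 were called in edgeR, DESeq2 or limma-voom, with a median logFC of 0.09 and 7 at an unadjusted p under 0.05. Gsk3b, the kinase that Li inhibits, was at 272, 265, 313 and 307 CPM in WTLi and at 342, 279.7, 347 and 417 CPM in KOLi. The library labelled KOLi replicate 2 lay inside the WTLi range and the other 3 above it (logFC 0.25, SE 0.08, edgeR adjusted p = 0.0338). Impa1, an inositol monophosphatase, had a logFC of 0.14, and Inpp1 and Bpnt1, related phosphatases, of 0.09 each. Without replicate 2, 1 of the 13 was called higher, Itpk1, a kinase of inositol phosphates. Of 15 targets of beta-catenin, 1 was called higher and 0 lower, against 1 and 2 without replicate 2 and 0 and 2 with a culture random effect. The call in all libraries was Lgr5, a receptor of R-spondins, at 4.49, 3.82, 3.27 and 4.21 CPM in WTLi and at 8.87, 4.96, 9.48 and 5.90 CPM in KOLi, without overlap (logFC 0.83, SE 0.18, edgeR adjusted p = 0.00825). Axin2, the most widely used target of the pathway, had a logFC of -0.06. Ccnd1 (logFC -1.06, edgeR adjusted p = 0.0101) and Tcf7 (logFC -1.14, edgeR adjusted p = 0.0146) missed the threshold, and both were called lower without replicate 2 and with a culture random effect, where the call of Lgr5 was lost. Of 30 CREB targets and immediate-early genes, which report neuronal activity and stress, 2 (6.67%) were called lower, against 3.6% of all tested genes. These were Dusp1 (logFC -0.97) and Jund (logFC -0.41), and 1 gene of the list was called lower without replicate 2. Dusp1, a phosphatase of MAP kinases, was at 17.8, 23.6, 21.1 and 50.3 CPM in WTLi and at 12.1, 15.6, 8.60 and 19.1 CPM in KOLi.

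Many synaptic genes and ion channels were higher in KOLi. Of 46 genes of the presynaptic vesicle cycle, 14 (30.4%) were called higher, of 36 postsynaptic scaffolds and adhesion proteins 10 (27.8%), of 37 glutamate receptor genes 10 (27%), of 20 genes of GABA receptors and synthesis 6 (30%) and of 50 voltage-gated channels 16 (32%), against 2.76% of all genes. None of their members was called lower. Median logFC were 0.30, 0.26, 0.41, 0.42 and 0.36 in this order. For the channels, the median was 0.36, 0.34, 0.33 and 0.38 in pairs 1 to 4, so that pair 2 was like the others, and all 50 had a logFC above 0. Without replicate 2, the calls were 16, 10, 17, 11 and 18.

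In the presynaptic list, Nsf, the ATPase that takes apart SNARE complexes, was at 1237, 863, 1288 and 859 CPM in WTLi and at 1616, 1300.5, 1655 and 1104 CPM in KOLi. The groups overlapped, but each pair differed by a similar amount, 0.36 to 0.59 (logFC 0.42, SE 0.06, edgeR adjusted p = 0.00131). Napb, a partner of Nsf, had a logFC of 0.42 and the vesicle protein Sv2b of 0.73, and the calls of all 3 held with any Li library left out. In the postsynaptic list, Dlgap1, a partner of SHANK proteins, was at 361, 244, 373 and 258 CPM in WTLi and at 473, 372, 492 and 367 CPM in KOLi. WTLi replicate 3 reached just above the 2 lowest KOLi libraries (logFC 0.48, SE 0.06, edgeR adjusted p = 0.00128). Lrrtm2, an adhesion protein of excitatory synapses, had a logFC of 0.46. Grid1, a delta-type glutamate receptor, was at 82.7, 68.3, 84.6 and 68.1 CPM in WTLi and at 109, 89.8, 109.7 and 105 CPM in KOLi, with every KOLi library above WTLi (logFC 0.45, SE 0.06, edgeR adjusted p = 0.00128). Cnih3, an auxiliary subunit of AMPA receptors, had a logFC of 0.59. The AMPA receptor subunits Gria1 (logFC 0.41) and Gria2 (logFC 0.37), named after their values were seen, rose as well.

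On the inhibitory side, Gabbr2, part of the GABA-B receptor, was at 308, 245, 292 and 273 CPM in WTLi and at 389.7, 318, 415 and 354 CPM in KOLi. The groups were apart, with the library labelled KOLi replicate 2 the lowest of its group and WTLi replicate 2 the lowest of all (logFC 0.40, SE 0.05, edgeR adjusted p = 0.00131). Among the channels, Kcnc4, of the fast Kv3 potassium channels, was at 46.2, 37.0, 55.6 and 48.3 CPM in WTLi and at 74.1, 56.3, 74.4 and 66.2 CPM in KOLi, again without overlap (logFC 0.54, SE 0.07, edgeR adjusted p = 0.00124). Kcnip1, a calcium-binding partner of Kv4 channels, had a logFC of 0.88 and Kcnh1, of the EAG channels, of 0.53, and all 3 held with any Li library left out.

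**Figure D4:**
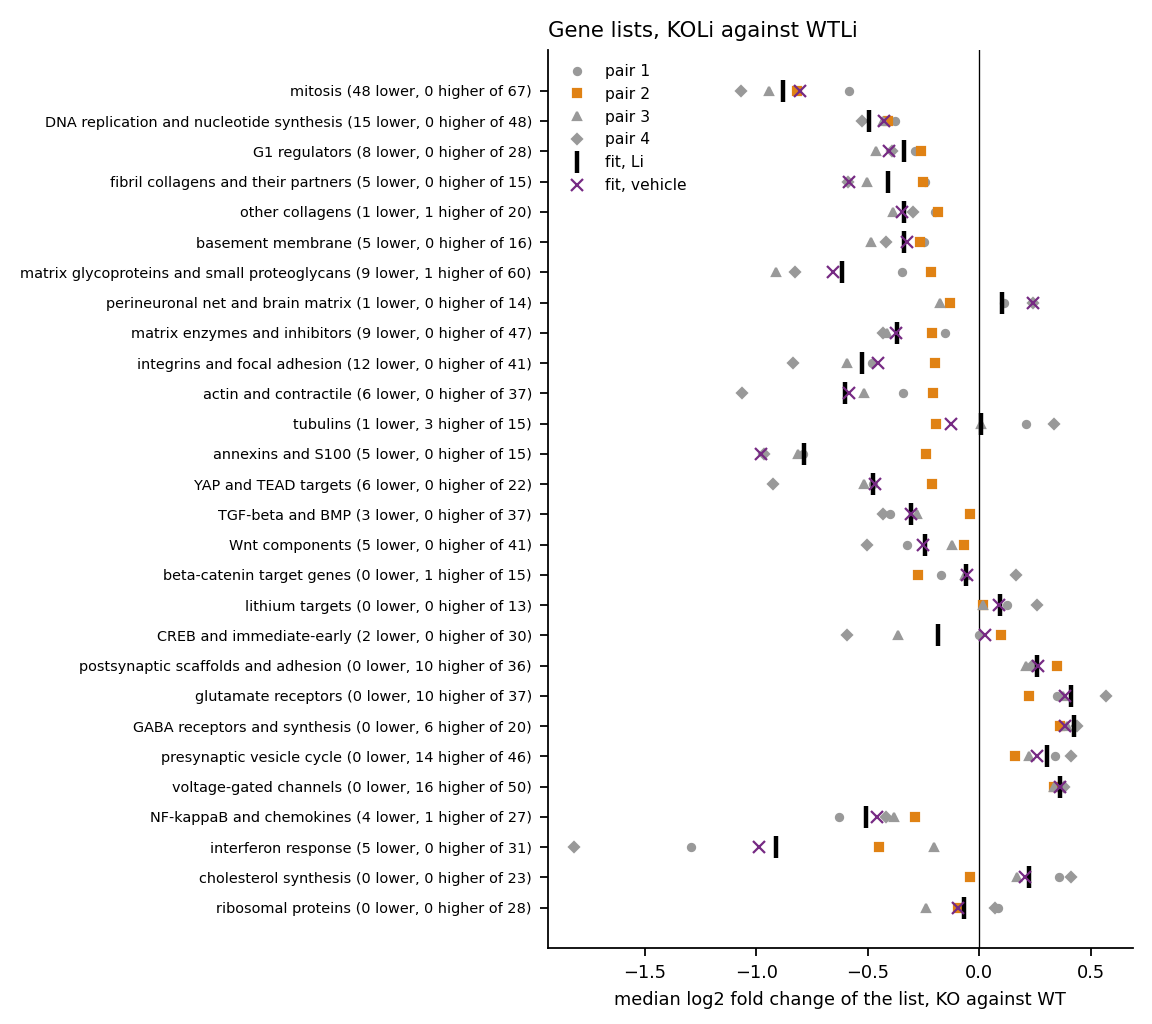
Median logFC of 28 pathway lists (x axis), with 1 line per list and, in brackets, the members called. Black bars are the fit for KOLi against WTLi, purple crosses that for KOVeh against WTVeh, and grey and orange markers the 4 Li pairs. Mitosis and the 5 lists of synaptic genes and channels lie on the same side of 0 in all 4 pairs, as do most of the other lists. The interferon list runs from -0.21 to -1.82.

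Immune genes were lower, unevenly over the pairs. Of 31 genes of the interferon response, 5 (16.1%) were called lower and 0 higher, with a median logFC of -0.91. By pair the median was -1.29, -0.45, -0.21 and -1.82, and 3 were called without replicate 2 and 2 with a culture random effect. H2-K1, of MHC class I, was at 60.5, 95.6, 33.3 and 94.6 CPM in WTLi and at 22.5, 57.9, 24 and 23.5 CPM in KOLi. WTLi replicate 3 and the library labelled KOLi replicate 2 made the groups overlap (logFC -1.16, SE 0.22, edgeR adjusted p = 0.00493). H2-D1, a near copy of H2-K1 that can share reads with it, and the RNA sensor Ddx58 had logFC of -1.01 and -0.85. Of 27 genes of NF-kappaB and chemokines, 4 (14.8%) were called lower and 1 (3.7%) higher, against 7 and 0 without replicate 2. Csf1, a growth factor of microglia, was at 132, 218, 97.8 and 250.1 CPM in WTLi and at 41.6, 138, 48.5 and 87.2 CPM in KOLi (logFC -1.19, SE 0.18, edgeR adjusted p = 0.00237). Relb and Nfkb2, which form a pair in the noncanonical pathway, had logFC of -0.47 and -0.75, and Relb had no overlap between groups. Genes of cholesterol synthesis (23) and ribosomal proteins (28) had 0 calls in edgeR and in limma-voom and 1 each in DESeq2, with medians of 0.22 and -0.07 and 12 and 2 genes at an unadjusted p under 0.05. Without replicate 2, 5 genes of cholesterol synthesis were called higher, and 1 ribosomal protein gene higher and 1 lower.

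Markers of cell types were compared over whole lists, as each library mixes cells. Over all tested genes, 3.6% were called lower and 2.76% higher, and without replicate 2 these shares were 7.54% and 4.41%. Single calls in lists this short say little beside those shares. Neurons and astrocytes were well covered, with all 12 and 13 of their markers tested, and Map2, Rbfox3, Snap25, Gfap and Aqp4 were read in every library. The summed level of the neuronal markers was 4078 to 6076 CPM in WTLi and 5009.7 to 7059 CPM in KOLi, with 2 of 12 called higher, Snap25 (logFC 0.42) and Syt1 (logFC 0.52), and all 12 above 0. For excitatory hippocampal neurons the sums were 2351 to 3475 and 3324 to 4132 CPM, with 1 call, Camk2a (logFC 0.42). For interneurons they were 553 to 1046 and 775 to 1318.5 CPM, with 1 call, Gad1 (logFC 0.43). Without replicate 2, the calls in these 3 lists were 4, 2 and 5, all higher. These sums went in the same direction as the synaptic lists, and their part in them was not tested. The astrocyte markers summed to 6725 to 10907 CPM in WTLi and 5895 to 10586 CPM in KOLi, with 1 call, the glutamate transporter Slc1a2, in the direction opposite to Gfap. This call was lost in each of the 8 fits with a Li library left out and without replicate 2, where 2 other astrocyte markers, Gja1 and Sox9, were called lower. Slc1a2 was at 859, 721, 1018 and 570 CPM in WTLi and at 1158, 1060, 1187 and 1069 CPM in KOLi (logFC 0.53, SE 0.12, edgeR adjusted p = 0.0096). Gfap, an intermediate filament, was at 3758, 5546, 3385 and 2739 CPM in WTLi and at 1529, 4611, 2328 and 1789 CPM in KOLi (logFC -0.65, SE 0.19, edgeR adjusted p = 0.0302), and so missed the threshold.

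Of 10 progenitor markers tested, 2 were called lower and 0 higher, against 3.6% and 2.76% of all tested genes. Nes, the intermediate filament of neural progenitors and reactive glia, was at 227, 405, 176 and 474 CPM in WTLi and at 65.9, 240.1, 63.4 and 153 CPM in KOLi. Only the library labelled KOLi replicate 2 reached the WTLi range, and the call held with any Li library left out (logFC -1.41, SE 0.19, edgeR adjusted p = 0.00131). Vim, of the same kind, was at 1277, 2197, 866 and 2659 CPM in WTLi and at 305, 1379, 399 and 668 CPM in KOLi (logFC -1.43, SE 0.25, edgeR adjusted p = 0.00367). The 10 markers summed to 1634 to 3752 CPM in WTLi and 886 to 2355 CPM in KOLi. The logFC of 3 of them was above 0 without a call, Hes5 (logFC 0.95), Hopx (logFC 0.12) and Fabp7 (logFC 0.07), and 4 were called lower without replicate 2. These sums went in the same direction as the mitosis list, and their part in it was not tested. By pair, the median logFC was -0.89, -0.26, -0.39 and -0.71 for these markers and -0.58, -0.82, -0.94 and -1.07 for mitosis. Meningeal fibroblast markers, which include collagens of the ECM lists, summed to 1782 to 1889 CPM in WTLi and to 1161 to 1688 CPM in KOLi, with 3 of 15 called lower, Ptgds, Col1a1 and Col1a2. All WTLi libraries were above all KOLi libraries. This sum went in the same direction as the ECM lists other than that of perineuronal nets, and its part in them was not tested.

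Markers of rarer cells differed widely between libraries of the same group. Their calls stand beside 3.6% of all tested genes called lower, and 7.54% without replicate 2. Ependymal markers, of ciliated cells, summed to 424, 400.1, 212 and 445 CPM in WTLi and to 87.7, 374, 115 and 93.7 CPM in KOLi. Of 13, 0 were called in edgeR and limma-voom and 5 lower in DESeq2, with 11 at an unadjusted p under 0.05. The logFC of all 13 was below 0 with a median of -1.20, and the median of pair 2 was 0.04. Foxj1, the master regulator of motile cilia, was at 185, 198, 94.2 and 254 CPM in WTLi and at 29.6, 167, 42.1 and 46.4 CPM in KOLi (logFC -1.62, SE 0.42, edgeR adjusted p = 0.0182). Without replicate 2, 9 of the 13 were called lower. Microglial markers summed to 213, 188, 37.2 and 45.7 CPM in WTLi and to 44.9, 179.5, 38.8 and 25.3 CPM in KOLi. They were high in WTLi replicates 1 and 2 and in the library labelled KOLi replicate 2, and low in the other 5, where Trem2 was at 0 in WTLi replicate 3 and KOLi replicate 4. Of the 13, 0 were called in edgeR, DESeq2 and limma-voom, and 2 had an unadjusted p under 0.05. In pairs 1 to 4, the median of these markers was -2.94, 0.04, -0.12 and -0.79. That of the interferon list was -1.29, -0.45, -0.21 and -1.82, and the part of microglia in the interferon list was not tested. Oligodendrocyte markers summed to 187 to 521 CPM in WTLi, with WTLi replicate 2 the highest, and to 123 to 202 CPM in KOLi, with 1 of 11 called, Cnp (logFC -0.79). Mural, endothelial and choroid plexus markers had 1 of 6, 0 of 8 and 0 of 7 called in edgeR (4 endothelial and 3 choroid plexus markers at an unadjusted p under 0.05). Without replicate 2, they had 2, 2 and 2 called lower and 1 endothelial marker called higher. Red blood cell markers were not tested, as 0 of 6 passed the filter. Of 5 sex-linked genes 0 were called in edgeR, DESeq2 or limma-voom (0 at an unadjusted p under 0.05), and both Xist and the Y-linked genes were read in every library.

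**Figure D5:**
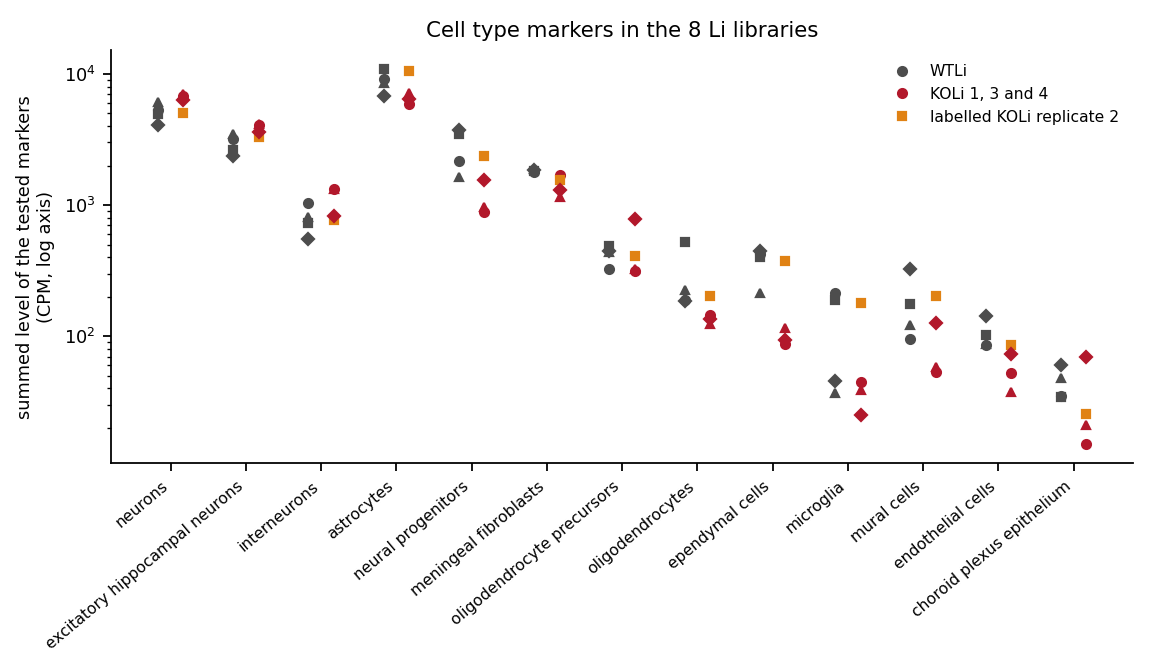
Summed level of the tested markers of 13 cell types (y axis, CPM, log axis) in WTLi (grey) and KOLi (red, with the library labelled KOLi replicate 2 in orange). Circles, squares, triangles and diamonds are replicates 1 to 4. For ependymal cells and microglia, the orange square lies with the upper WTLi values, at 374 and 179.5 CPM.

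Neighbours of Shank3 on chromosome 15 were called in both directions. Within 10 Mb of the gene 209 others were tested, of which 9 were called lower and 13 higher (10.5%), against 6.79% of 368 genes on the rest of the chromosome and 6.36% of all genes. Within 1 Mb, 3 of 30 were called, Plxnb2 (logFC -0.86), a plexin, Lmf2 (logFC -0.44) and Mapk8ip2 (logFC 0.29), a scaffold of MAP kinases. The difference in share was not tested. Tuba1c had the largest rise there and Col2a1 the largest fall. Tmem106c was at 31.2, 35.2, 27 and 31.1 CPM in WTLi and at 19.2, 25.5, 18.5 and 18.9 CPM in KOLi, without overlap (logFC -0.61, SE 0.08, edgeR adjusted p = 0.00128). Scube1, a secreted protein, was at 11.2, 11.3, 10.2 and 8.81 CPM in WTLi and at 19.3, 15.7, 18.7 and 19.6 CPM in KOLi, also without overlap (logFC 0.82, SE 0.14, edgeR adjusted p = 0.00368). Cerk, ceramide kinase, Shisal1, Tcf20 and Sept3 were higher in every KOLi library, with logFC of 0.35, 0.43, 0.42 and 0.26, and Fbln1, an ECM protein, lower in every KOLi library, with a logFC of -1.06.

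The genotype difference under Li was set against that under Veh, where 506 genes (3.42%) were called lower and 307 (2.08%) higher, by an interaction term. No gene was called, and 112 (0.758%) had an unadjusted p under 0.05 in edgeR, against 64 in DESeq2 and 103 in limma-voom, which called 0 as well. With each culture as a block, which compares Veh with Li inside each culture, 422 had an unadjusted p under 0.05 and 0 were called. The smallest edgeR adjusted p of that fit was 0.0153, for Gm14434. In edgeR without culture blocks, the 5 smallest p-values belonged to Gm14434, Suv39h2, Hist1h2be, Phospho1 and BC024978. Gm14434 had a logFC of -3.20 under Li and of 3.47 under Veh. Reads of Gm14434 came from replicate 4 alone among the Li libraries, with 9.56 CPM in WTLi and 0.995 CPM in KOLi and 0 in the other 6. Suv39h2, a histone methyltransferase, had a logFC of 0.33 under Li and of -0.32 under Veh (difference 0.65, SE 0.17). Hist1h2be, a histone gene, had -0.43 and 0.29 (difference -0.71, SE 0.20). For genes described above, picked after their values were seen, the values side by side were -1.21 and -1.18 for Ckap2 (difference -0.03, SE 0.16), 2.31 and 2.49 for Tuba1c (difference -0.18, SE 0.40), and -1.41 and -1.36 for Nes (difference -0.05, SE 0.26). They were -0.96 and -0.75 for Prc1 (difference -0.22, SE 0.15), -0.84 and -1.01 for Aebp1 (difference 0.17, SE 0.14), and 0.53 and 0.42 for Tppp (difference 0.12, SE 0.07). Shank3 had -1.09 under Li and -1.07 under Veh (difference -0.02, SE 0.31). By list, the median under Li and under Veh was -0.88 and -0.81 for mitosis, -0.62 and -0.66 for glycoproteins, -0.41 and -0.59 for fibril collagens, and 0.36 and 0.36 for channels. CREB targets and immediate-early genes had a median of -0.19 under Li and 0.03 under Veh. In edgeR without culture blocks, 0 of 30 had an unadjusted p under 0.05 for the difference. In this list, Dusp1 had a logFC of -0.97 under Li and of -0.53 under Veh (difference -0.44, SE 0.27, edgeR unadjusted p = 0.129). With each culture as a block, its unadjusted edgeR p was 0.00267 and its adjusted p 0.999. The members of the list under 0.05 were not counted in that fit.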

How the data were processed

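RNA of bulk hippocampal cultures was sequenced in 16 libraries, of which 8 were of Li-treated cultures. The authors deposited counts, whole numbers of reads per gene that were not normalized, in tables of 54532 genes. The submitters' processing notes name HISAT2 2.0.5, featureCounts 1.5.0-p3 and GRCm38.p6. The sources used here give no strand setting for the counting. Reads of antisense or overlapping genes cannot be told apart. Spreadsheet dates stood in place of 14 gene names, and gene IDs were used.

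Biotypes were restricted as in the study (33134 genes), and genes were filtered with filterByExpr (minimum count 15, minimum proportion 0.25), which left 14783. edgeR 4.0.16 (R 4.3.3) was fitted with TMM factors to all 16 libraries with group and replicate number as terms, as 1 estimate of the spread, with 9 residual degrees of freedom. A call needed a fold over 1.2 and an adjusted p (Benjamini-Hochberg) under 0.01. Levels are TMM-scaled CPM, and differences within pairs are log2 CPM with a prior count of 2. Alternatives used DESeq2 1.42.0 and limma 3.58.1 (limma-voom), other scalings, filters, terms and libraries. Treating Veh and Li libraries of 1 genotype and number as 1 culture gave a correlation of 0.507. The fit was also run on simulated counts with changes put in. These counts held no replicate effect and no correlation within a culture, so the run says nothing about either.

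Replicate numbers were taken to pair the libraries by experiment. Deviations from the group means of WTLi and KOLi libraries of equal number correlated at r = 0.161, 0.499, 0.384 and 0.5 across genes, which are not independent. WTLi replicates 2 and 4 correlated best with KOLi of their own number, WTLi replicate 1 with KOLi 2 (0.295) and WTLi replicate 3 with KOLi 1 (0.449). Nothing in the labels says that libraries of a group came from separate cultures beyond these numbers, and p-values measure the spread between these libraries.

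Genes were named by a rule: Shank3, the 12 largest falls and rises from 1 log2 CPM on average upwards, 3 members per list by smallest p, members of lists of 16 or fewer genes, the 5 smallest p of the interaction, and calls within 10 Mb of Shank3. A few genes that the rule names are not reported here. Other names were chosen after their values were seen. The comparison, the members and the lists were chosen with earlier results of these data known. Promoter windows were matched by symbol.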

Additional observations from a re-analysis of the deposited data

Results flagged for a closer look

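In 132 groups of 4 libraries, 1 library was checked for lying far from the other 3 of its group, and 15 groups had such a library. Chance gives about 1 in 20 groups. The library labelled KOLi replicate 2 stood above the other KOLi libraries for Shank3 (159 CPM), Casq1 (8.13 CPM) and Hc (8.19 CPM). It also stood above them in the summed level of annexins and S100 proteins (975 CPM), of microglial markers (179.5 CPM) and of ependymal markers (374 CPM). It stood below the other KOLi libraries in the summed level of postsynaptic scaffolds (8535 CPM) and of glutamate receptors (4246 CPM). KOLi replicate 3 stood apart for Lypd1 (31.6 CPM), and KOLi replicate 4 for the sum of perineuronal net genes (2779 CPM). Among WTLi libraries, replicate 4 was far above the others for Tuba1c (48.1 CPM) and far below for Tgfbi (6.94 CPM). WTLi replicate 3 was far below the others for Hc (5.59 CPM) and above them for 1700048O20Rik (3.15 CPM), and WTLi replicate 2 was far above for the sum of oligodendrocyte markers (521 CPM).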

How the results depend on the processing

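Counts of calls turned on the terms and libraries of the fit. Between KOLi and WTLi, 1199 genes were lower and 848 higher in DESeq2. Sample quality weights in limma-voom gave 1285 and 888, and an adjusted p under 0.05 gave 1741 and 981. Without TMM factors 255 were higher. With no replicate block 0 and 0 were called, and Shank3 had a logFC of -1.05 (edgeR adjusted p = 0.214). Fitting the Li libraries alone gave 0 and 0 calls with the pairing by replicate number (Shank3 -1.09), without it (Shank3 -1.04) and in limma-voom with the pairing (Shank3 -1.08). The last and the fit of 3 Li pairs without pair 2, with 5 lower and 0 higher, were chosen after seeing the data. The sequencing batch in place of the replicate block gave 0 and 0 (Shank3 -1.04), and sequencing batch 1 alone 3 and 7 (Shank3 -0.95). Over all fits without a library or a replicate number, lower calls ranged from 0 to 1115, higher calls from 0 to 652 and the logFC of Shank3 from -1.38 to -0.95. The cause of these differences was not tested.

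Of 115 called genes named by the rule besides Shank3, 107 stayed called in limma-voom, 115 in DESeq2, 96 with the culture as a random effect and 105 without replicate 2, and 0 without the replicate block or with the Li libraries alone. No called gene among 165 named and no median of the 42 lists was reversed in any setting run. The interaction had 0 calls in all 13 fits run. Depth, at 16123067 reads or more per Li library, leaves genes such as Col2a1, at 0.126 to 1.14 CPM in KOLi, with few reads in the lowest libraries. In bulk libraries the makeup of the cultures and the level per cell cannot be told apart.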
